A study of Ailuropoda melanoleuca with 25 samples.

Results

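The cell junction and keratin genes described here are 39 genes for claudins, cadherins with their relatives, desmosomal proteins, connexins, keratins, and epithelial surface proteins. They were chosen by name. Each carries a symbol of these families in the study's list of tissue-specific differentially expressed genes (DEGs), and each was looked up by its identifier among the 25376 genes of the table. The list holds 2814 genes, of which 1778 have a name, so a family member without a name there was not looked at. Heart, liver, spleen, lung, and kidney were taken from each of 5 newly dead giant pandas, and RNA was sequenced in 1 library per tissue and panda, 25 in all. Panda 1 was a female of age 27 that died of ovarian cancer, and panda 2 a female of age 9 whose cause of death is labelled "ileac pssion". Pandas 3 and 4 were females and panda 5 a male, all of age 0.5 and dead of coronavirus infection. The labels give ages with no unit. No group of healthy animals is among the 25 libraries.

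Epithelial cells are held together by tight junctions, adherens junctions, and desmosomes. Claudins line the tight junction and set which ions pass between cells, classical cadherins bridge neighbouring membranes, and desmosomes tie the membrane to keratin filaments. Connexins form the channels of gap junctions. Heart muscle cells use another set of the same proteins at the intercalated disc, where N-cadherin, desmoplakin, plakophilin-2, and connexin 43 join the cells mechanically and electrically.

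The values are FPKM, read numbers divided by gene length and by the library total, so that levels of different genes can be compared per length. Series of 5 values are in the order of pandas 1 to 5. The list was drawn from comparisons of these same libraries, so the levels of a gene in a tissue it is listed under are a description. Tests were kept to pairs of tissues neither of which lists the gene, and to the young pandas against the older ones. Tests of young against older pandas called a difference at an adjusted p under 0.05 alone. To be called between tissues, a difference needed an adjusted p under 0.05 and a size of more than 2, up or down, on the scale of log2(FPKM + 1). That scale understates the change of low genes. In pieces of tissue, fewer cells of a type and less RNA per cell cannot be told apart.

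The named markers of the main cell types were highest in the tissues of their labels. Their names come from the same list of tissue-specific DEGs, so this match was in part set by the list. The summed level of 7 cardiomyocyte genes was 63944 to 79110 FPKM in the hearts and at most 62.4 elsewhere, and that of 8 hepatocyte genes 23212 to 61066 in the livers and at most 489 elsewhere. The sum of 6 lung epithelial genes was 14509 to 48540 in the lungs and at most 149.6 elsewhere. The sum of 7 kidney tubule genes was 117 to 2266 in the kidneys and at most 1.73 elsewhere. The sum of 4 B cell genes was 317 to 681 in the spleens and at most 84.3 elsewhere. Whole reads could be recovered for 24145 of the 24207 genes above 0, at a tolerance of 0.05 reads. They sum to between 11829565 and 19177784 per library (median 14255870), a lower limit of the depth because 62 genes are left out.

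Kidney and lung held the broadest sets. Of the 39 genes, 31 had a mean above 1 FPKM in the kidney and 28 in the lung, against 19 in the heart and 18 each in spleen and liver. Of all 25376 genes, 15173 passed that level in the kidney and 15858 in the lung. The spleen had 15346, the heart 12657, and the liver 12355. Kidney had the highest mean for 12 genes, lung for 11, heart for 9, liver for 4, and spleen for 3. Genes highest in a tissue that lists them numbered 10 in kidney, 5 in lung, 9 in heart, and 2 each in liver and spleen. The tally therefore describes the list in part. Some genes are listed under more than 1 tissue, which gives 52 pairs of a gene and a listing tissue. In 28 of these the tissue was higher than all 4 others and in 11 lower than all 4. Only comparisons with a mean above 1 FPKM in either tissue were counted. The other 13 were mixed or lacked such a comparison with some tissue, as did CDH3 in the heart and PKP3 in the spleen. Both of these genes had their lowest mean in that tissue. The listing therefore does not mean the highest level. Just inside a log2 difference of 2 from each of the other tissues stood DSG2 in the spleen, with a smallest log2 difference of -2.02, and CDH8 in the heart with 2.104. Just outside stood CDHR3 in the lung (1.78), CDH13 in the heart (1.75), and GJA3 in the heart (1.69).

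**Figure D1:**
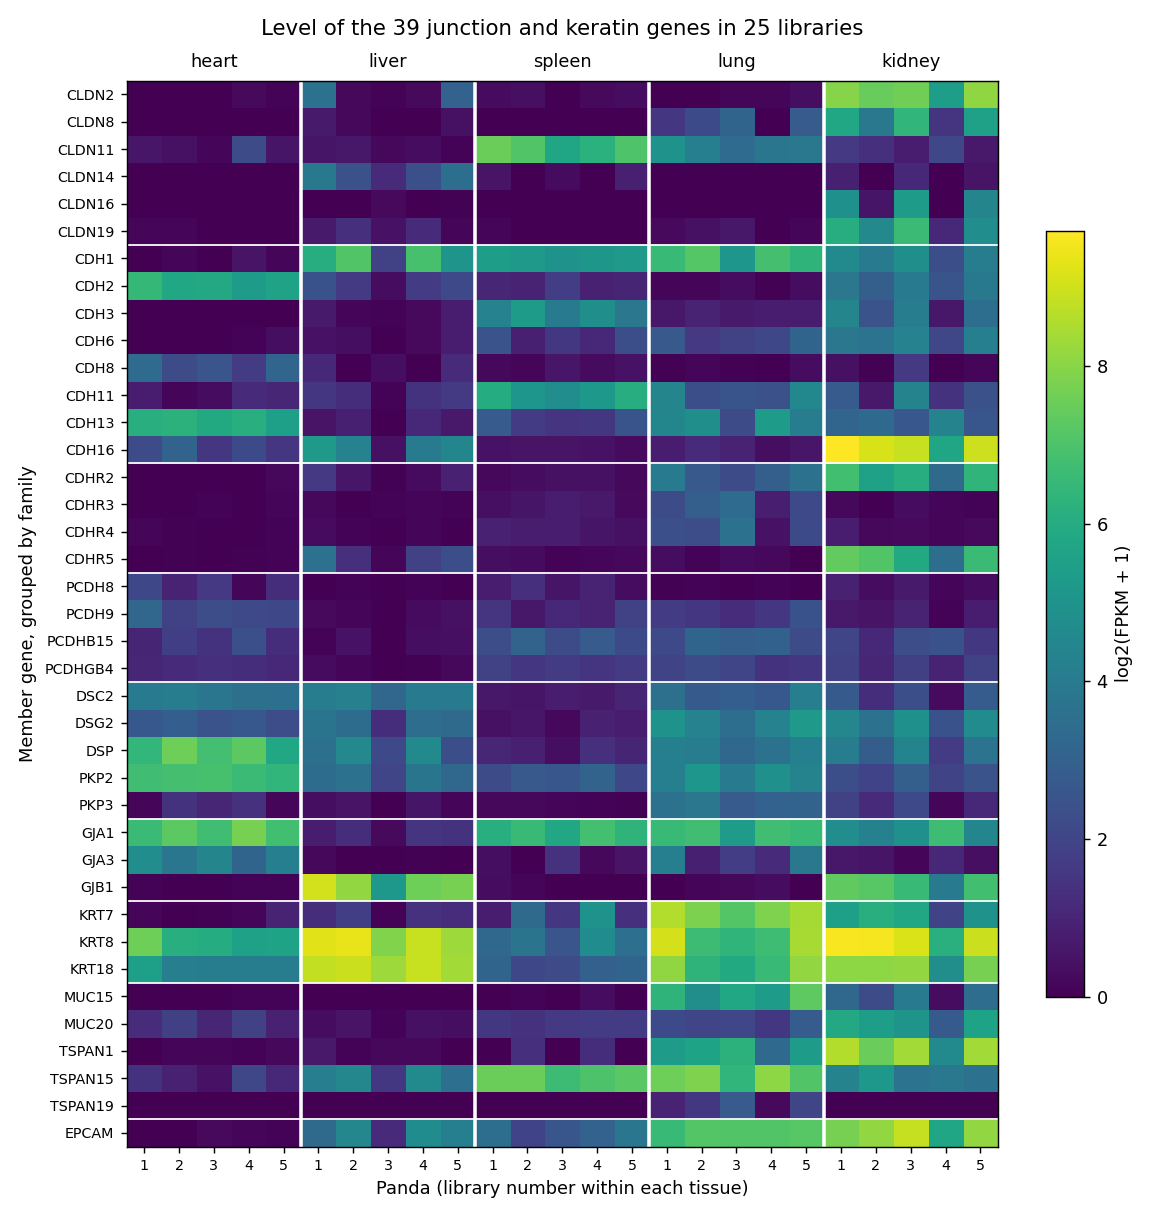
Level of each of the 39 genes (rows, grouped by family) in each library (columns, 5 pandas in each tissue) as log2(FPKM + 1), from dark (0) to yellow (highest). CDH16, KRT8, and EPCAM are among the brightest rows in the kidney, KRT7 in the lung, GJB1 in the liver, and CDH2, DSP, and PKP2 in the heart; the column of kidney 4 is darker than the other kidneys.

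The claudins divided by tissue. CLDN2, the claudin that makes the proximal tubule permeable to cations and water, measured 246, 174, 196, 42.2, and 276 FPKM in the kidneys and at most 0.322 in any heart, spleen, or lung. In the livers it measured 11.45, 0.143, 0.0776, 0.181, and 7.22, so pandas 1 and 5 carried a low level there and the others almost none. CLDN8, a barrier claudin of the distal nephron, measured 55.0, 13.9, 83.9, 1.82, and 46.0 in the kidneys, 1.91, 3.59, 7.72, 0, and 5.97 in the lungs, at most 0.633 in the livers, and 0 in all hearts and spleens. Kidney 4 lay within the range of the lungs. CLDN16 and CLDN19 together form the channel by which the thick ascending limb takes up magnesium and calcium. CLDN16 measured 28.5, 0.446, 40.2, 0, and 20.5 in the kidneys and CLDN19 64.7, 22.8, 98.8, 1.10, and 25.9. Both were low in kidney 4, and CLDN16 was low in kidney 2 as well. In the 3 kidneys with both above 1 FPKM, CLDN16 stood at 0.440, 0.407, and 0.792 of the level of CLDN19.

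Markers of the same tubule segment moved with these values. UMOD, the main secreted protein of the thick ascending limb, measured 783, 248, 1217, 15.4, and 361 in the kidneys, and SLC12A1, its salt cotransporter, 304, 24.1, 415, 2.47, and 161. Panda 4 was lowest for all 4 genes and panda 2 next to lowest. The part of the segment's share of each sample in the claudin values was not tested.

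CLDN14 had its highest mean in the liver and CLDN11 in the spleen. CLDN14 measured 14.4, 4.30, 1.21, 4.22, and 10.3 in the livers, at most 1.14 in the kidneys, and 0 in all hearts and lungs. CLDN11, known from the tight junctions of myelin and the testis, measured 185, 135, 51.9, 73.8, and 130.01 in the spleens and 30.4, 17.5, 9.49, 12.9, and 13.8 in the lungs. Every spleen was above every lung. It was at most 3.81 in the other tissues.

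The classical cadherins CDH1 and CDH2 separated heart from lung. CDH2 (N-cadherin), the adherens cadherin of heart muscle, measured 88.6, 55.1, 56.8, 39.8, and 47.9 in the hearts and 13.5, 6.62, 15.2, 4.77, and 14.1 in the kidneys, with at most 0.249 in the lungs. CDH1 (E-cadherin), the adherens cadherin of epithelium, measured 91.5, 143, 33.1, 115, and 77.9 in the lungs, 65.5, 136, 2.64, 116, and 31.5 in the livers, and at most 0.428 in the hearts. Hearts therefore held N-cadherin with almost no E-cadherin, and lungs the reverse. Kidneys held both, with 1.72, 2.25, 1.83, 0.849, and 1.15 times as much CDH1 as CDH2. CDH1 is listed under the heart alone, so its difference between other tissues can be tested. It was higher in lung than in kidney, with a log2 difference of 2.41 ± 0.48 (SE, adjusted p = 0.00128) in limma, and higher in all 5 pandas. That difference became 1.90 when the libraries were rescaled by TMM factors, and 1.89 without panda 4. CDH1 was not confined to the epithelial organs. Every spleen, at 29.8 to 41.9, was above every kidney, at 4.05 to 27.8. Spleen minus kidney was 1.22 ± 0.39 (SE, adjusted p = 0.0203) in limma, below the size needed for a call.

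CDH3 (P-cadherin) had another order than CDH1. It measured 19.0, 39.6, 15.1, 28.0, and 13.6 in the spleens, 20.3, 4.55, 15.8, 0.563, and 10.4 in the kidneys, 0.563, 0.936, 0.606, 0.679, and 0.653 in the lungs, and at most 0.0241 in the hearts. All spleens were above all lungs, with a spleen minus lung difference of 3.73 ± 0.28 (SE, adjusted p = 1.02e-06). The spleen was also above the liver, with liver minus spleen at -4.08 ± 0.32 (SE, adjusted p = 8.60e-07), and all livers were below all spleens. CDH1 did not share this order, since its spleen minus lung difference was -1.20 ± 0.32 (SE, adjusted p = 0.0149), with 41.9, 36.5, 29.8, 34.7, and 36.4 FPKM in the spleens. CDH3 was higher in kidney than in lung (-2.27 for lung minus kidney) in 4 of 5 pandas, with panda 4 the other way. Without panda 1 (-1.90) or panda 3 (-1.99) this call was lost. Liver was also below kidney, at -2.62 ± 0.59 (SE, adjusted p = 0.00376), a call lost with quantile normalization (-1.69).

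The remaining cadherins were each high in 1 or 2 organs. CDH16, the kidney cadherin of tubule cells, measured 842, 559, 480.2, 53.3, and 507 in the kidneys, the highest mean of all members but 1 there (488 ± 283, SD, n = 5). In the livers it was 36.7, 18.7, 0.346, 15.4, and 21.0, with liver 3 far below the rest. CDH6, a cadherin of the proximal tubule, measured 13.4, 11.8, 19.0, 3.20, and 17.2 in the kidneys. It was higher in lung than in heart, where the difference was -2.20 ± 0.27 (SE, adjusted p = 1.11e-05), reduced to -1.62 with TMM factors and to -1.30 with quantile normalization. CDH11, the cadherin of mesenchymal cells, measured 64.3, 33.3, 25.9, 35.3, and 66.4 in the spleens and 20.7, 4.01, 4.74, 4.38, and 22.4 in the lungs, and heart and liver were both below lung (-2.55 and -2.06). Both of these calls were lost under either rescaling, and that of the liver also without panda 1, 3, or 5.

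CDH13 (T-cadherin), which has a lipid anchor and no cytoplasmic tail, measured 68.5, 75.2, 58.4, 69.1, and 43.6 in the hearts. In the lungs it was 21.2, 27.7, 3.84, 40.8, and 16.6, above the livers (0.432, 0.798, 0, 1.10, and 0.582) with a liver minus lung difference of -3.60 ± 0.50 (SE, adjusted p = 5.51e-05). Liver was below kidney at -2.59 ± 0.38 (SE, adjusted p = 2.62e-04), which became -1.67 with quantile normalization. In the spleens it was lower than in the lungs, at -2.21 ± 0.51 (SE, adjusted p = 0.00584). The lung of panda 3 was the only one that overlapped the spleens, and the call was lost without panda 2 (-1.98) or panda 4 (-1.81). CDH8, a cadherin best known from the brain, measured 9.66, 3.83, 4.88, 2.28, and 8.08 in the hearts and at most 2.08 elsewhere.

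The cadherin-related genes fell into a kidney and a lung group. CDHR2 and CDHR5 link the tips of brush border microvilli. They measured 110.0, 46.1, 65.8, 9.18, and 81.9 and 167, 134, 58.9, 10.3, and 97.4 FPKM in the kidneys, with CDHR2 at 0.660, 0.345, 1.12, 0.893, and 0.841 of CDHR5. Outside the kidney the partners parted. CDHR2 measured 15.4, 5.59, 3.75, 6.71, and 11.4 in the lungs, where CDHR5 was at most 0.256, and CDHR5 measured 11.4, 1.54, 0.112, 2.74, and 4.10 in the livers, where CDHR2 was at most 2.08. CDHR2 was lower in heart than in lung (-3.07 ± 0.30 (SE, adjusted p = 1.92e-06)) and lower in spleen than in lung (-2.80 ± 0.31 (SE, adjusted p = 2.66e-05)). Each of its hearts and spleens was below each of its lungs, and both calls held under every alternative run. It was also lower in liver than in lung at -2.43 ± 0.39 (SE, adjusted p = 1.61e-04), a call lost with TMM factors (-1.54) and with quantile normalization (-1.11).

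CDHR3, a receptor of rhinovirus C on ciliated airway cells, and CDHR4 were members of the lung. CDHR3 measured 3.68, 6.70, 9.54, 0.776, and 3.40 and CDHR4 4.12, 3.92, 11.504, 0.377, and 3.56 in the lungs. TSPAN19 measured 0.931, 1.98, 5.98, 0.188, and 3.04 there and was listed at 0 in all 20 other libraries. Lung 4 was lowest and lung 3 highest for all 3 genes. FOXJ1, the factor that switches on the genes of motile cilia, measured 61.4, 102, 107, 1.33, and 21.3 in the same lungs, again lowest in panda 4 and highest in panda 3. FOXJ1 was the only one of 4 ciliated cell markers with a name, so the share of airway in each piece of lung could not be followed further, and its part in these values was not tested. FOXJ1 also measured 82.7, 23.3, 23.99, 1.77, and 33.5 in the kidneys, where CDHR3 was at most 0.260 and TSPAN19 was listed at 0.

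The 4 protocadherins were low throughout. PCDH9 measured 8.16, 2.76, 3.87, 3.39, and 3.32 in the hearts and 2.25, 1.94, 1.36, 1.90, and 4.43 in the lungs, and PCDH8 3.27, 0.928, 2.05, 0.0919, and 1.41 in the hearts. PCDHB15 and PCDHGB4 are listed under the liver because they were lowest there, at no more than 0.373 and 0.234 FPKM. Genes of the protocadherin clusters resemble each other closely, and PCDHGB4 shares exons with its neighbours in other mammals, so reads that fit more than 1 of them may be left uncounted.

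Desmosomal genes were highest in the heart in part only. DSP (desmoplakin), which anchors the filaments, measured 86.6, 188, 112, 152, and 55.5 in the hearts and at most 24.0 elsewhere. PKP2, the plakophilin of the intercalated disc, measured 107, 114, 116, 97.3, and 83.4 in the hearts and 17.1, 33.6, 14.9, 28.2, and 19.6 in the lungs. Every heart was above every other library for both genes. The desmosomal cadherins had a flatter order. DSC2 measured 15.4, 16.0, 12.9, 10.9, and 10.8 in the hearts and 16.1, 17.6, 8.35, 15.3, and 15.6 in the livers, which overlapped. DSG2 measured 30.5, 18.6, 10.5, 18.6, and 36.9 in the lungs, 21.5, 11.2, 28.0, 4.44, and 24.5 in the kidneys, and 5.31, 6.54, 4.55, 5.32, and 3.88 in the hearts. PKP3, the plakophilin of simple and stratified epithelia, measured 11.2, 13.3, 5.97, 7.30, and 7.46 in the lungs and at most 3.39 elsewhere.

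Spleens held the lowest means of DSC2, DSG2, DSP, and PKP3, at 0.0479 to 1.503 FPKM over the 4 genes and 5 spleens. PKP2 was not part of that, with 3.65, 5.58, 5.03, 7.61, and 3.30 in the spleens against 3.98, 2.93, 6.62, 2.998, and 4.66 in the kidneys. Between lung and kidney, PKP2 was higher in lung at 2.16 ± 0.31 (SE, adjusted p = 1.11e-04), in 5 of 5 pandas, a difference that fell to 1.64 with TMM factors, to 1.70 with quantile normalization, to 1.91 without panda 2, and to 1.98 without panda 4. DSC2 was higher in liver than in kidney at 2.03 ± 0.50 (SE, adjusted p = 0.00584), reduced to 1.62 without kidney 4 and to 1.80 without panda 2. PKP3 was lower in liver than in lung at -2.97 ± 0.26 (SE, adjusted p = 1.97e-06), and all livers were below all lungs, but with quantile normalization the difference was -1.72 and no longer called. Heart minus lung was -2.45 ± 0.32 (SE, adjusted p = 1.91e-05) for PKP3 and was lost with TMM factors (-1.52) and with quantile normalization (-1.16).

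**Figure D2:**
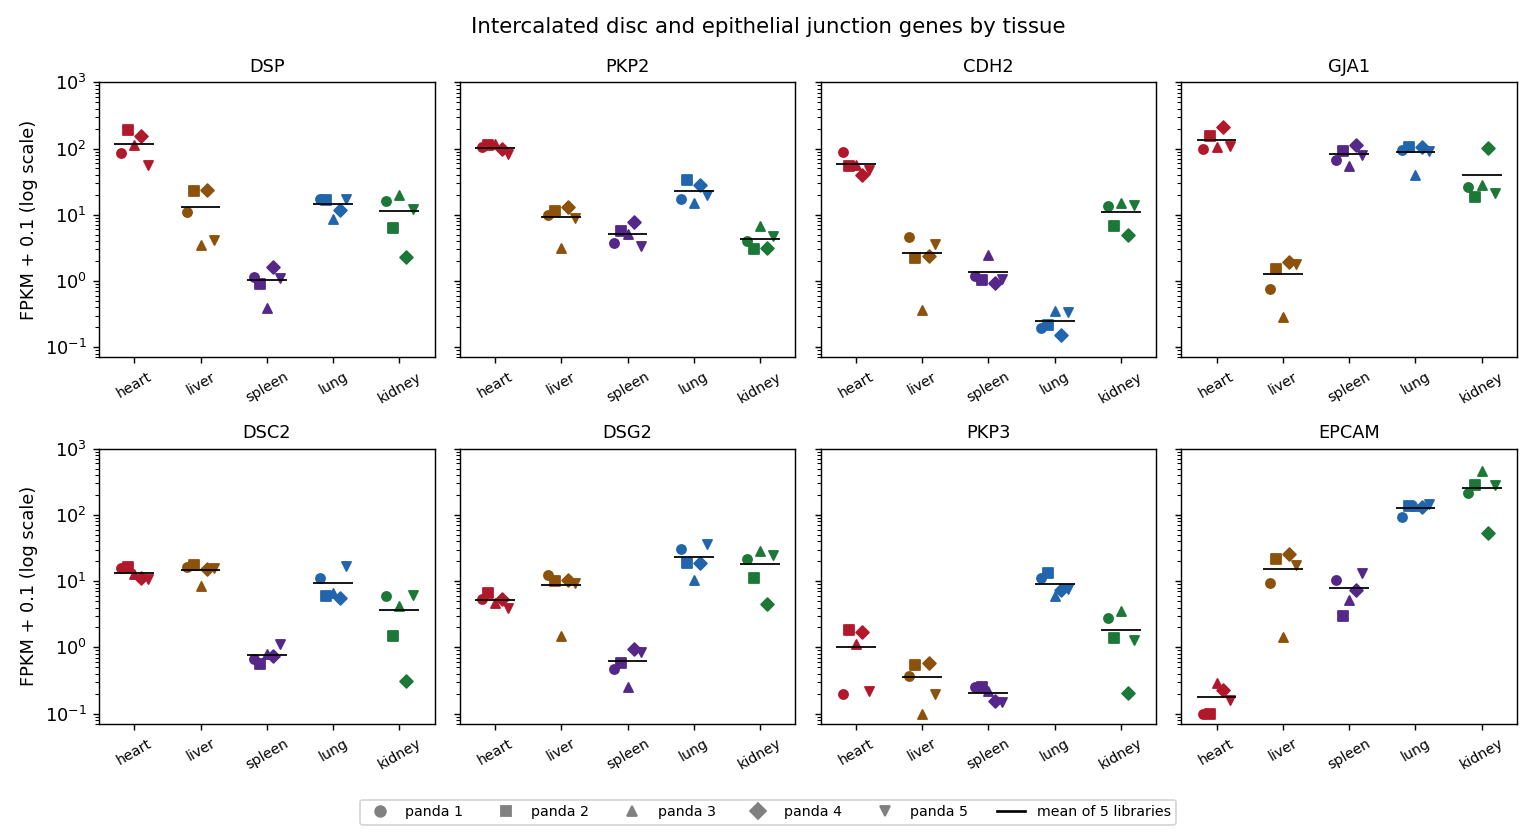
FPKM + 0.1 on a log axis for 8 junction genes in the 5 tissues, with 1 symbol per panda and a bar at the mean of 5 libraries. All hearts lie above all other libraries for DSP, PKP2, and CDH2, while EPCAM is at most 0.193 FPKM in the hearts and GJA1 is low in the liver alone.

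The make-up of the desmosomal cadherins changed between tissues. DSG2 stood at 0.344, 0.409, 0.352, 0.486, and 0.361 of the level of DSC2 in the hearts and at 0.767, 0.565, 0.169, 0.664, and 0.593 in the livers. In the lungs the ratio was 2.74, 3.21, 1.62, 3.42, and 2.17, and in the 4 kidneys with both above 1 FPKM it was 3.72, 7.99, 6.84, and 4.02. No value of heart or liver reached those of lung or kidney. A ratio within a library does not change when the library is multiplied by 1 factor, as with TMM, but it rests on the gene lengths the authors used.

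Of the called differences outside the listing, the 2 largest were those of a connexin between liver and lung and between liver and spleen. GJA1 (connexin 43), the main gap junction protein of working heart muscle, measured 97.8, 153, 106, 213, and 108 FPKM in the hearts, 94.5, 107, 39.7, 105, and 92.0 in the lungs, 67.9, 92.6, 54.6, 113, and 78.6 in the spleens, and 25.9, 18.5, 28.4, 102, and 21.2 in the kidneys. In the livers it measured 0.653, 1.42, 0.187, 1.86, and 1.71. Every liver was below every other library. Liver minus lung was -5.35 ± 0.36 (SE, adjusted p = 3.35e-07), liver minus spleen -5.28 ± 0.32 (SE, adjusted p = 1.22e-07), and liver minus kidney -3.97 ± 0.48 (SE, adjusted p = 5.29e-05). These 3 calls held under every alternative run. GJB1 (connexin 32), the gap junction protein of hepatocytes, had 534, 279, 35.2, 192, and 212 in the livers and 161, 144, 93.1, 15.2, and 109 in the kidneys, and at most 0.257 in the other 15 libraries. GJA3 (connexin 46), best known from the lens, measured 26.4, 12.9, 20.7, 7.74, and 17.3 in the hearts and 17.4, 0.789, 2.42, 1.27, and 13.9 in the lungs, where pandas 1 and 5 were far above the rest. Its liver minus lung difference of -2.32 ± 0.59 (SE, adjusted p = 0.00347) was lost without panda 1 (-1.91) or panda 5 (-1.93) and under both rescalings.

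The keratins KRT8 and KRT18 pair into the filaments of simple epithelia and are the keratins of hepatocytes. KRT8 measured 788, 760.2, 571, 71.7, and 497 FPKM in the kidneys, 616, 677, 233, 479, and 315 in the livers, 542, 101, 81.2, 103, and 348 in the lungs, and 191, 68.7, 64.0, 46.0, and 48.9 in the hearts. KRT18 measured 449, 489, 316, 473, and 331 in the livers, 266, 264, 282, 27.0, and 212 in the kidneys, 272, 79.6, 58.9, 94.7, and 278 in the lungs, and 44.3, 16.9, 16.0, 15.8, and 16.0 in the hearts. Both were lowest in the spleens, at 3.32 to 25.3. Lungs 1 and 5 were above the other lungs for both.

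Heart means were below those of livers and kidneys for both keratins. Single hearts and kidneys overlapped, since heart 1 was above kidney 4 for KRT8 (191 against 71.7 FPKM) and for KRT18 (44.3 against 27.0). Heart minus liver was -2.57 ± 0.42 (SE, adjusted p = 3.77e-04) for KRT8 and -4.28 ± 0.32 (SE, adjusted p = 4.51e-07) for KRT18, and every heart was below every liver. Heart minus kidney was -2.98 ± 0.57 (SE, adjusted p = 7.22e-04) for KRT18 and -2.51 ± 0.59 (SE, adjusted p = 0.00304) for KRT8. The KRT8 difference from kidney fell to -1.69 with TMM factors, and that of KRT18 from lung fell from -2.63 to -1.30, whereas the others named kept their call. The partners were not equal in all organs. KRT8 stood at 4.30, 4.07, 4.01, 2.91, and 3.06 times KRT18 in the hearts and 2.96, 2.88, 2.03, 2.65, and 2.34 times in the kidneys, but at 1.37, 1.38, 0.738, 1.01, and 0.952 times in the livers and 1.99, 1.26, 1.38, 1.09, and 1.25 times in the lungs. Every heart ratio was above every liver and lung ratio, and so was every kidney ratio. The spleens spanned both ranges, at 1.09, 3.68, 1.32, 3.73, and 1.39 times. Processed copies of both genes exist in other mammals, and reads that such copies share could not be told apart.

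**Figure D3:**
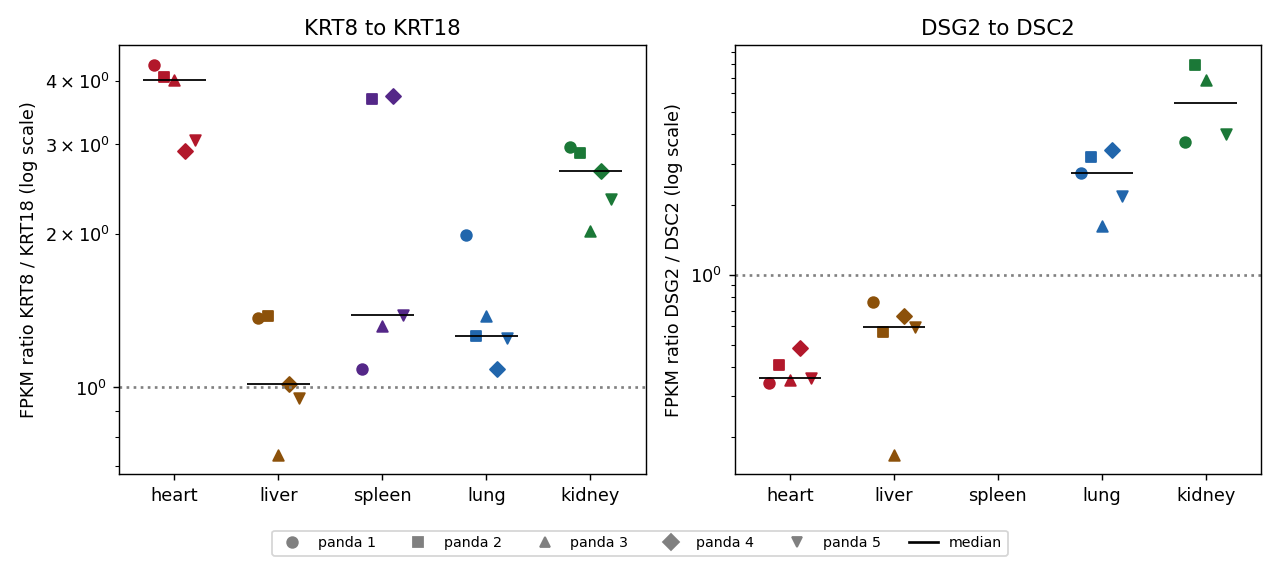
Ratio of partners within each library on a log axis, KRT8 to KRT18 on the left and DSG2 to DSC2 on the right, with 1 symbol per panda, a bar at the median, and a dotted line at a ratio of 1; libraries with either partner at or below 1 FPKM are left out, which removes all spleens on the right. The median of KRT8 to KRT18 is 4.01 among hearts against 1.01 among livers, and that of DSG2 to DSC2 is 0.361 among hearts against 5.43 among kidneys.

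KRT7, a keratin of ducts and of simple epithelium in the lung, measured 390.2, 223, 138, 230.4, and 339 in the lungs and 44.0, 66.9, 54.0, 2.98, and 31.0 in the kidneys. In the spleens it ranged widely, at 0.726, 9.30, 1.88, 30.1, and 1.47, with panda 4 the highest. The heart minus spleen difference of -2.14 ± 0.66 (SE, adjusted p = 0.00910) was lost without panda 2 (-1.83), without panda 4 (-1.46), and under both rescalings. In spleen 4 the sum of the lung epithelial genes was also the highest of the spleens, at 149.6 against 18.8 to 40.8, and its part in the KRT7 value was not tested.

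EPCAM was highest in kidney and lung. EPCAM, an adhesion protein of most simple epithelia, measured 211, 280.2, 459, 53.4, and 285 in the kidneys and 93.5, 139, 135, 133, and 145 in the lungs, against 9.39, 21.6, 1.31, 25.3, and 17.5 in the livers and at most 0.193 in the hearts. Liver minus kidney was -4.13 ± 0.69 (SE, adjusted p = 5.83e-04), and all livers were below all kidneys. Liver minus lung was -3.40 ± 0.57 (SE, adjusted p = 2.10e-04) and became -1.86 with TMM factors.

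MUC15 and MUC20 are membrane mucins. MUC15 measured 78.5, 26.9, 54.4, 39.2, and 159 in the lungs, 8.78, 3.80, 14.6, 0.246, and 9.9999 in the kidneys, and 0 in all livers, while MUC20 measured 57.3, 41.3, 31.5, 5.81, and 49.0 in the kidneys and at most 6.04 elsewhere. The tetraspanins are small membrane proteins that organise others. TSPAN1 measured 388, 180.1, 326, 23.8, and 328 in the kidneys and 40.3, 48.7, 74.3, 8.91, and 40.9 in the lungs. TSPAN15, which guides the protease ADAM10, measured 187, 227, 83.8, 270.1, and 135 in the lungs and 184, 186, 101, 129, and 148 in the spleens. It was listed under the heart for its low level there, 1.69, 0.866, 0.403, 3.24, and 1.13. Lung minus kidney was 3.23 ± 0.36 (SE, adjusted p = 1.77e-05) and spleen minus kidney 3.04 ± 0.31 (SE, adjusted p = 5.07e-06), both higher in 5 of 5 pandas. Liver minus lung was -3.71 ± 0.56 (SE, adjusted p = 9.83e-05), and all livers were below all lungs. Liver minus spleen was -3.52 ± 0.52 (SE, adjusted p = 8.50e-05) and became -1.98, no longer called, with TMM factors.

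Over all members, 123 differences lay outside the listing comparisons and passed the filter of a mean above 1 FPKM in 1 of the 2 tissues, and 34 of them were called. Heart was lower in all 10 calls it took part in. The 9 members with their highest mean in the heart are all listed under it, so they were left out of these tests. That direction was therefore set in large part by the listing. Of the members tested, 2 of 9 were called between heart and liver (15.7% of all genes tested in that pair), 1 of 5 between heart and spleen (23.3%), 5 of 12 between heart and lung (22.9%), and 2 of 9 between heart and kidney (15.3%). Over all genes, 7.28% were called lower in heart than in liver, 19.4% than in spleen, 19.5% than in lung, and 12.3% than in kidney. Liver was lower in 15 of its calls against spleen, lung, and kidney and higher in 1, that of DSC2. These were 3 of 11 against spleen (29.9%), 8 of 20 against lung (29.0%), and 5 of 16 against kidney (14.0%). Over all genes, 25.9% were called lower in liver than in spleen, 25.7% than in lung, and 11.7% than in kidney, with 2.35% higher in liver than in kidney. The other calls were 3 of 14 between spleen and lung (6.88%), 1 of 9 between spleen and kidney (14.3%), and 4 of 18 between lung and kidney (12.2%). Each share of members rests on 20 tests or fewer.

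The scale of the libraries bears on these directions. Without rescaling, the median log2 difference over all genes tested was -1.17 for heart minus lung, -1.16 for heart minus spleen, -1.28 for liver minus lung, and -1.29 for liver minus spleen, so most genes were lower in heart and liver. It was -0.76 for heart minus kidney, -0.89 for liver minus kidney, 0.41 for spleen minus kidney, 0.43 for lung minus kidney, and 0.14 for heart minus liver. The members tested had medians of -1.90 for heart minus lung, -1.73 for liver minus lung, -1.27 for liver minus spleen, -0.48 for heart minus kidney, and -0.94 for liver minus kidney. TMM factors brought the medians of all genes to between -0.12 and 0.08. Of the 34 calls, 21 held with TMM factors, 22 with quantile normalization, and 18 with both. The calls of GJA1 in liver and of KRT18 between heart and liver were among the 15 that held in every alternative run, and with TMM factors the liver minus lung difference of GJA1 was -4.17.

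**Figure D4:**
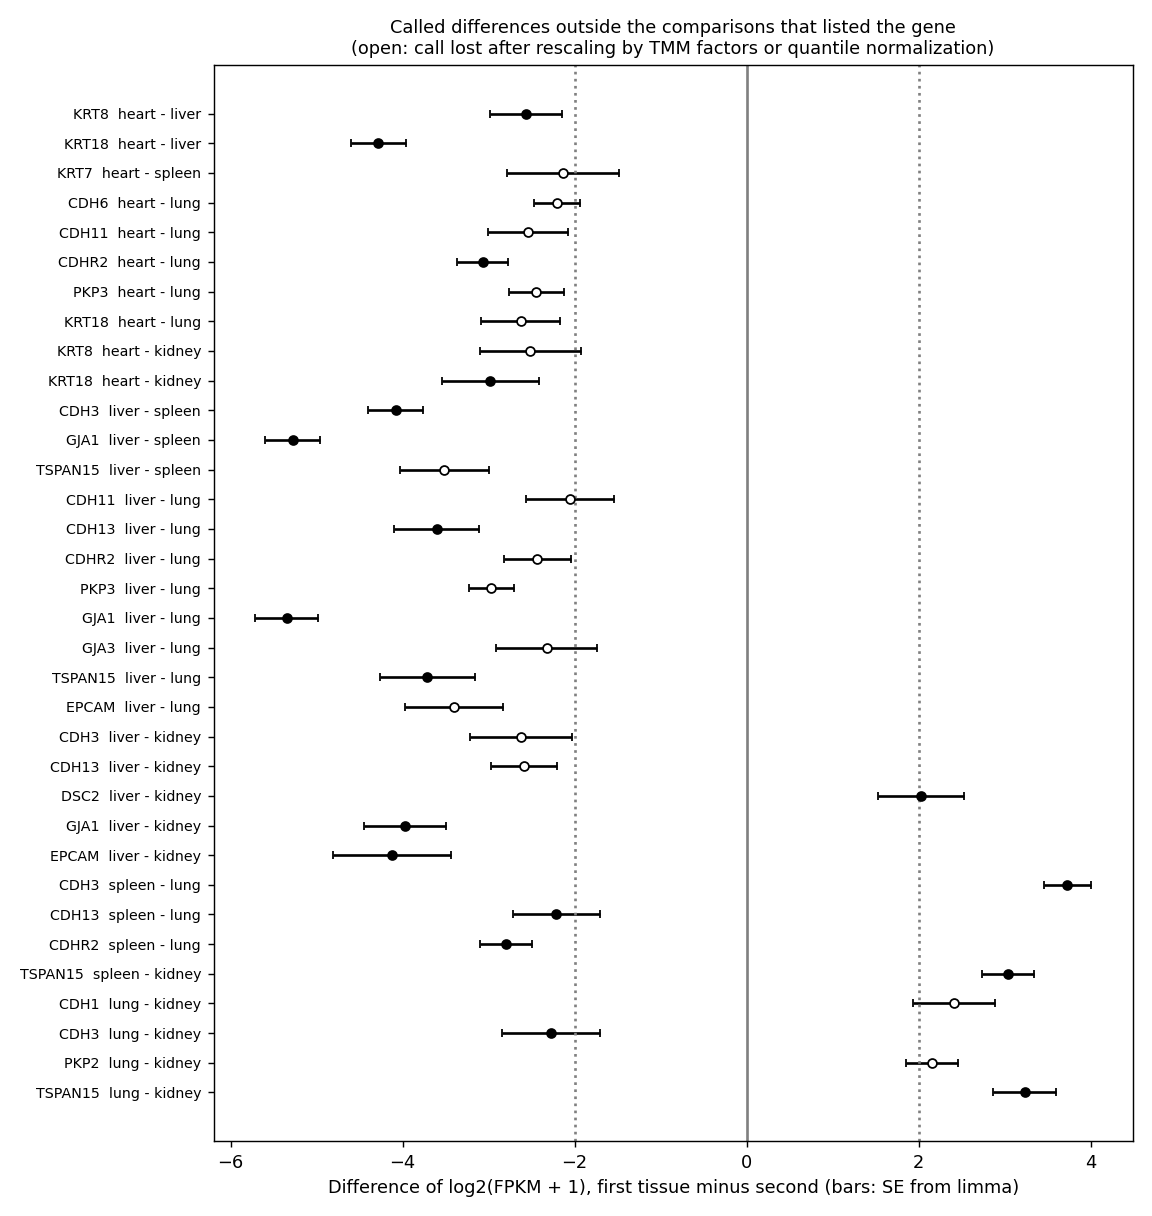
The 34 called differences outside the listing comparisons, as the difference of log2(FPKM + 1) of the first tissue minus the second with its SE from limma (5 libraries per tissue); dotted lines mark the threshold of 2, and open circles the calls lost under TMM factors or quantile normalization. The 3 differences of GJA1 in liver lie at -5.35, -5.28, and -3.97.

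In the kidney and the liver 1 library stood apart. Kidney 4 was the lowest of the kidneys for 24 of the 31 members above 1 FPKM, and for 46.9% of all genes above 1 FPKM. With TMM factors these were again 24 of 31, against 31.1% of all genes. The sum of the 7 tubule markers was 2197, 948, 2266, 117, and 1416, and 7 of the 7 were lowest in kidney 4. NPHS1 (nephrin), of the podocytes of the glomerulus, was also lowest there, at 45.5, 11.497, 14.1, 0.701, and 31.5. Of the 31 members, 4 were highest in kidney 4, namely CLDN11, CDH13, PCDHB15, and GJA1, with CDH13 at 7.96, 8.96, 5.28, 19.2, and 4.995 and GJA1 at 25.9, 18.5, 28.4, 102, and 21.2. Markers of endothelium and fibroblasts had no name in the list and were not followed. The part of the tissue sampled in kidney 4 was not tested.

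**Figure D5:**
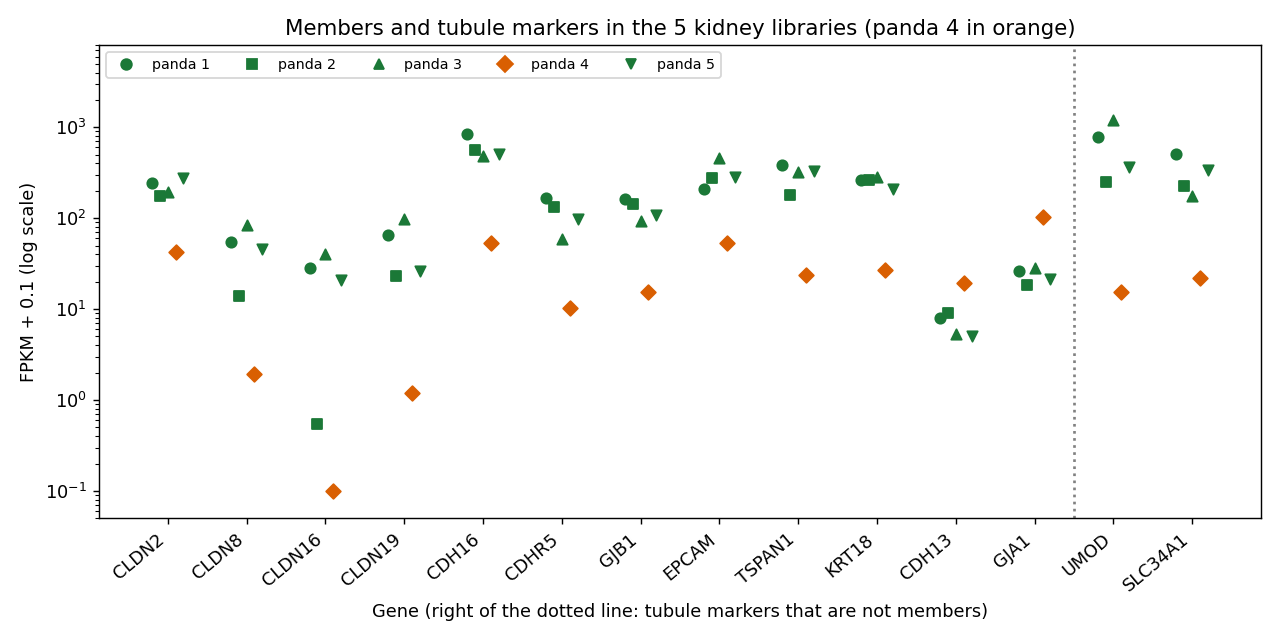
FPKM + 0.1 on a log axis in the 5 kidneys, with 12 members left of the dotted line and the tubule markers UMOD and SLC34A1 to its right. Kidney 4, in orange, is lowest for CLDN2 to KRT18 and for both markers, and highest for CDH13 (19.2 FPKM) and GJA1 (102 FPKM).

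Liver 3 was the lowest liver for 18 of 18 members above 1 FPKM, against 64.6% of all genes, and with TMM factors for 14 of 21, against 39.6%. Of the 8 hepatocyte markers, 7 were lowest in liver 3, such as FGA (3606, 1296, 146, 1109, and 2975) and APOB (395, 135, 11.1, 137, and 409). SERPINA1 was highest there (22712, 10328, 49208, 12066, and 18348) and made up most of the summed level of 52739 in liver 3, which lay within the range of the other livers. Lung 3 was the lowest lung for 14 of 28 members, against 15.6% of all genes. The sum of B cell markers in the lungs was 20.6, 23.6, 84.3, 27.7, and 23.6, highest in that lung, where 4 of the 6 lung epithelial markers were lowest. The part of these in the members' levels was not tested. Without kidney 4, 11 of the 12 calls that involve the kidney held, all but DSC2, and without liver 3, 17 of the 18 that involve the liver, all but CDH11.

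The 3 young pandas were also compared with the 2 older ones. Age cannot be told apart from the cause and year of death, since all young pandas died of coronavirus infection. In limma, 0 genes were called at an adjusted p below 0.05 in any tissue (0% of 15173 genes in the kidney, 15858 in the lung, 15346 in the spleen, 12657 in the heart, and 12355 in the liver). At an unadjusted p below 0.05 there were 456, 180, 1628, 558, and 87 genes in the same order. Over the mean of the 5 tissues 0 of 18701 genes were called, with 1295 at an unadjusted p below 0.05. Among the members, KRT8 in the heart passed the unadjusted threshold, with 53.0 FPKM in the young and 129.7 in the older pandas, as did TSPAN15 in the spleen, CLDN11 in the lung, and CDHR5 in the kidney. These were 1 of 19 members tested in the heart, 1 of 18 in the spleen, 1 of 28 in the lung, and 1 of 31 in the kidney. In the liver it was 0 of 18. Over the mean of the 5 tissues 2 of 39 members passed that threshold, CDH16 and KRT8. The KRT8 mean of the older hearts rests on panda 1, at 191 against 68.7 in panda 2. CDHR5 in the kidney averaged 55.5 in the young and 150.2 in the older pandas, and kidney 4 is among the young.

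The direction of the members was mostly downward in the young pandas, and it moved with single libraries. They were lower in 24 of 31 in the kidney, 19 of 28 in the lung, 9 of 18 in the spleen, 14 of 19 in the heart, and 17 of 18 in the liver. With quantile normalization these counts were 23, 23, 8, 13, and 13. Genes of the same libraries are not independent, so the counts are a description. The median log2 difference of the members was -0.36 in the kidney, -0.31 in the lung, -0.0025 in the spleen, -0.36 in the heart, and -0.81 in the liver, against 0.026, 0.079, 0.028, -0.017, and -0.39 over all genes. With each panda left out in turn it ranged from -0.93 to 0.30 in the kidney, from -0.55 to -0.055 in the lung, from -0.20 to 0.099 in the spleen, from -0.39 to -0.19 in the heart, and from -1.23 to -0.24 in the liver. The upper ends came without panda 4 in the kidney, without panda 3 in lung, spleen, and liver, and without panda 1 in the heart. Without panda 4 the kidney count was 10 of 31, and CLDN16 passed the adjusted threshold there (log2 difference of young minus older 2.19 ± 0.56, SE, adjusted p = 0.0121) among 231 genes called. Its values in older and young kidneys overlap. Whether the difference between young and older pandas depended on the tissue was tested by an interaction with the panda as a random block. It called 0 of 18701 genes, with 129 at an unadjusted p below 0.05 and none of the 39 members among them.

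Of 65 further genes of junctions, 14 carry a name, all of them because they are in the same list. Of these, DES, XIRP1, XIRP2, and BVES had their highest mean in the heart. DES (desmin), the filament that desmosomes hold in heart muscle, averaged 10743 FPKM in the hearts and 237 in the spleens. XIRP1 averaged 273 and XIRP2 19.5 in the hearts, and BVES 27.9. PARD6B, a polarity protein, averaged 33.7 in the lungs and 25.02 in the kidneys, against 2.64 in the spleens. LSR, which marks the corners where cells meet, averaged 90.6 in the lungs, 54.0 in the livers, 52.7 in the kidneys, 51.7 in the spleens, and 3.63 in the hearts.

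Outside their own listing comparisons these 14 genes gave 62 tests without rescaling, of which 24 were called. These were 6 of 9 between liver and lung (29.0% of all genes tested in that pair), 3 of 9 between liver and kidney (14.0%), 1 of 8 between liver and spleen (29.9%), 4 of 9 between spleen and lung (6.88%), 5 of 9 between spleen and kidney (14.3%), 2 of 10 between lung and kidney (12.2%), 2 of 3 between heart and lung (22.9%), and 1 of 3 between heart and kidney (15.3%). The other 2 tests, between heart and liver, gave no call. ESRP1, a splicing factor of epithelial cells, was lower in spleen than in lung at -3.74 ± 0.23 (SE, adjusted p = 2.35e-07). DES was higher in spleen than in kidney at 4.64 ± 0.81 (SE, adjusted p = 4.89e-04), with 223, 435, 94.97, 273, and 157 FPKM in the spleens and 1.52, 91.7, 1.95, 9.62, and 4.82 in the kidneys. ST14 (matriptase), a protease of epithelial surfaces, was lower in liver than in lung at -3.42 ± 0.38 (SE, adjusted p = 1.19e-05). Over all genes, 4254 of the 4807 calls of that pair had the same direction.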

How the data were processed

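The deposited table holds FPKM values of 25376 genes in 25 libraries. Per the study's methods, the authors mapped paired reads with HISAT2 (genome build ailMel1), extended the annotation with Cufflinks assemblies, counted reads with HTSeq in union mode, and divided by gene length and library total; no normalization between libraries is stated. Multiply mapped reads are left out in that counting mode by default, which lowers genes with close copies. Gene symbols came from the study's supplementary list of tissue-specific DEGs, read from a page copy, so a misread symbol may be missed; 2 genes of that list with names of these families are not reported here. The members and gene lists were chosen with earlier results of these data known. Of the members, 35 had their symbol in the RefSeq table of another assembly, which was used for gene order alone, and no sequence is shown.

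Groups came from the labels. FPKM was compared between 2 tissues at a time with limma (version 3.58.1, R 4.3.3, trend in the variance) on log2(FPKM + 1), for genes with a mean above 1 FPKM in either tissue, with Benjamini-Hochberg adjustment over all genes tested. The authors used DESeq on counts, which the FPKM table does not hold. Recovered reads served to describe depth; the number of reads behind a value limits low levels. Named genes are all 39 members, with the called differences outside the listing comparisons.

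Libraries with the same number share sex, age, and date of death and were taken as the same panda. After tissue means were removed, libraries of 1 panda correlated across genes at 0.0600 to 0.521 (49 of 50 pairs above 0.1), and those of different pandas at -0.469 to 0.377. With the panda as a block no call of a member changed. The fits were tested on simulated data with known changes. Alternatives were TMM factors, quantile normalization, a pseudocount of 0.1, no filter, the block, 1 fit of all libraries, and each panda left out; leaving out kidney 4 or liver 3 alone, and the rescaled counts of members, were chosen after the data were seen. Levels and ratios were computed in Python (3.11.15; pandas 2.3.3) and plotted with matplotlib 3.10.9.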

Additional observations from a re-analysis of the deposited data

Results flagged for a closer look

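Of 114 groups of 5 libraries of a member in a tissue with a mean above 1 FPKM, 14 had a library whose gap to its nearest neighbour exceeded 0.71 of the range of the group, where chance gives about 1 in 20. Of these 14, 3 were in kidney 4, 3 in heart 1, and 2 in liver 3.

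In kidney 4, KRT18 was low at 27.0 FPKM (nearest 212), and GJA1 at 102 (nearest 28.4) and CDH13 at 19.2 (nearest 8.96) were high. In heart 1, KRT8 was high at 191 (nearest 68.7), KRT18 at 44.3 (nearest 16.9), and PCDH9 at 8.16 (nearest 3.87). In liver 3, DSC2 was low at 8.35 (nearest 15.3) and DSG2 at 1.41 (nearest 9.26).

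The other 6 lay in different libraries. CLDN11 was high in heart 4 at 3.81 (nearest 0.499), CDH2 in spleen 3 at 2.38 (nearest 1.08), CDH11 in kidney 3 at 19.1 (nearest 5.89), and PCDH9 in lung 5 at 4.43 (nearest 2.25). GJA1 was low in lung 3 at 39.7 (nearest 92.0), and EPCAM in lung 1 at 93.5 (nearest 133).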

How the results depend on the processing

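Between 29 and 32 of the 34 calls held with each panda left out in turn, and all 34 held with the pseudocount of 0.1, with no filter, with 1 fit of all libraries, and with the panda as a replicate block, where the count was again 34. The interaction of age and tissue called 0 members with and without the block. The pseudocount of 0.1 raised the total to 58, with 4 calls between heart and liver, 2 between heart and spleen, 4 between heart and kidney, 7 between liver and spleen, 8 between liver and kidney, 6 between spleen and lung, and 7 between lung and kidney. Over all genes the calls rose as well, from 2238 to 3872 between heart and liver and from 3752 to 6475 between heart and spleen. Between heart and kidney they rose from 2430 to 4256, and between liver and spleen from 4841 to 8250. Liver and kidney went from 2210 to 4572, spleen and lung from 1163 to 2352, and lung and kidney from 2103 to 3719. With TMM factors the total was 28, with 0 calls between heart and spleen, 1 between heart and lung, and 2 between lung and kidney. With quantile normalization it was 26, with 0 between heart and spleen, 1 between heart and lung, and 5 between liver and lung. Over all genes the calls of these pairs fell from 3752 to 2355, from 3790 to 2096, and from 4807 to 2147. With a panda left out, the total ranged from 33 to 38, the heart and spleen count from 0 to 1, the spleen and lung count from 3 to 5, and the count of members called between young and older kidneys from 0 to 1. With TMM factors, chosen for this after the data were seen, 7 members in place of 4 were highest in the liver. The heart minus lung difference of KRT8, -1.27 and not called, turned to 0.0774 with TMM factors. The cause of these changes was not tested.

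Rescaling also moved the split of calls over all genes. With TMM factors, those higher in the heart went from 626 of 3752 to 1268 of 2455 against spleen, from 561 of 3790 to 1186 of 2241 against lung, and from 485 of 2430 to 840 of 2077 against kidney. Those higher in the liver went from 638 of 4841 to 1579 of 2692 against spleen, from 553 of 4807 to 1580 of 2604 against lung, and from 371 of 2210 to 719 of 1600 against kidney. Against kidney, those higher in the spleen went from 1374 of 2440 to 899 of 2132, and those higher in the lung from 1264 of 2103 to 667 of 1733. Levels near 0 rest on few reads.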

Other observations

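Of the 35 members placed by symbol in the RefSeq gene order of another panda assembly, 3 pairs are neighbours with 0 protein-coding genes between them: CDH3 and CDH1, CDH8 and CDH11, and KRT8 and KRT18. The neighbours did not share their order over tissues in each pair. CDH1 was highest in the lungs (mean 92.2 ± 41.3, SD, n = 5), where CDH3 averaged 0.687 ± 0.146, and CDH3 was highest in the spleens (23.1 ± 10.8), where CDH1 averaged 35.9 ± 4.36. CDH8 was highest in the hearts (5.75 ± 3.05), where CDH11 averaged 0.695 ± 0.510, and CDH11 in the spleens (45.0 ± 18.9), where CDH8 averaged 0.276 ± 0.155. KRT8 and KRT18 were both lowest in the spleens, with means of 12.3 ± 7.81 and 5.83 ± 2.17.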
